A study of Homo sapiens with 9 samples.

Results

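The LINC genes are long intergenic noncoding RNA genes that carry a systematic symbol, LINC followed by a number, because they had no better known name when they were catalogued. Every gene of the array whose current symbol has this form was taken, whatever its signal, which gave 840 of 19775 genes (4.25%) measured by 1084 probe sets. Of these genes 672 had 1 probe set and 168 had several, up to 7. The samples were monolayer cultures of HT-29, an established human colon adenocarcinoma line, treated over 5 days with the cytidine analog 5-aza-deoxycytidine (5-Aza), which is built into DNA and traps DNA methyltransferases, so that methylation is lost as cells divide. The 3 groups received DMSO vehicle alone (0 µM), 5 µM 5-Aza or 10 µM 5-Aza, with 3 separately extracted cultures per group. Each RNA was hybridised to 1 Affymetrix U133 Plus 2.0 array, giving 9 arrays. All groups are the same single cell line, so the data hold no information on other colon cells.

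Long noncoding RNAs are transcribed and often spliced and polyadenylated like messenger RNAs but are not translated into a known protein. Some act on neighbouring genes on the same chromosome, some act elsewhere in the nucleus or cytoplasm, and for many no function is established. They are typically less abundant and more restricted to particular tissues than messenger RNAs, and DNA methylation at their promoters is one of the layers that can keep them silent. Methylation in human cells falls mainly on the cytosine of CG dinucleotides, and CG-dense promoters (CpG islands) are usually free of it in normal tissue.

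The promoter windows of 7 LINC genes that changed with dose are shown because CG dinucleotides are the sites on which 5-Aza acts. Each runs from 250 bases before to 50 bases after the annotated start, 5′ to 3′ on the strand of the gene, in RefSeq GRCh38.p14. CG dinucleotides are in capitals. The first 5 belong to genes that were higher at 5 µM, with LINC02381, LINC02135 and LINC00592 back below the floor at 10 µM, LINC00886 to the gene with the most CG among the 16 called genes that have a window, and LINC00992 to the gene that fell furthest at 5 µM.
LINC02381 (chr12:54125821-54126120, plus strand): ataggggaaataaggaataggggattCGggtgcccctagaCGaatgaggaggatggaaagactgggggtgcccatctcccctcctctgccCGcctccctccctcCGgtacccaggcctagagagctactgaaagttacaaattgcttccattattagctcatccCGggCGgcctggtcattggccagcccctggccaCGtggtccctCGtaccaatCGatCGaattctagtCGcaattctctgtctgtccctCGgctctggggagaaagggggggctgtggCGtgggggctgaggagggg
LINC02135 (chr16:86286181-86286480, plus strand): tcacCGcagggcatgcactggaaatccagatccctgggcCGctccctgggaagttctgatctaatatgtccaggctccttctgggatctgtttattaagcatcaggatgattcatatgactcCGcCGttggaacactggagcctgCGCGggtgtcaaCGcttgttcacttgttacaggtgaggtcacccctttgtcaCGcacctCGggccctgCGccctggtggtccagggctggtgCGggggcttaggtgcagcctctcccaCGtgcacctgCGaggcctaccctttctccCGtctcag
LINC00513 (chr7:130913214-130913513, plus strand): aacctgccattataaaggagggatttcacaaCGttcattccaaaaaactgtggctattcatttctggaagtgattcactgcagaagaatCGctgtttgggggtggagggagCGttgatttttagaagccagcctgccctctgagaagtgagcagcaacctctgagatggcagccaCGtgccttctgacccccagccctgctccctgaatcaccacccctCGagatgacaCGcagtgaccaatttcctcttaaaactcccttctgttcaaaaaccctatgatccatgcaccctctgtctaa
LINC00592 (chr12:52210680-52210979, plus strand): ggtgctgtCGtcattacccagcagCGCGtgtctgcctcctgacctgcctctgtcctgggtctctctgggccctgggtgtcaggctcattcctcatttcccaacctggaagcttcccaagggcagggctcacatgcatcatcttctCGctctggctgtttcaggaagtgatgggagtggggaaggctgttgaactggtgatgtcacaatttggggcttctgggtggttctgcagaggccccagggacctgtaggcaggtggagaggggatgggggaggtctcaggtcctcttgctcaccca
LINC00261 (chr20:22578593-22578892, minus strand): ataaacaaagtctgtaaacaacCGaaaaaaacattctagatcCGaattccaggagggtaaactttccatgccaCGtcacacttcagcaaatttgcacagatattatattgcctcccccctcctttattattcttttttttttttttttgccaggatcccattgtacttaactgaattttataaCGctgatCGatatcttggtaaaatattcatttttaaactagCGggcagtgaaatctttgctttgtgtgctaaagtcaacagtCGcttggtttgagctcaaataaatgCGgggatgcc
LINC00886 (chr3:156817013-156817312, minus strand): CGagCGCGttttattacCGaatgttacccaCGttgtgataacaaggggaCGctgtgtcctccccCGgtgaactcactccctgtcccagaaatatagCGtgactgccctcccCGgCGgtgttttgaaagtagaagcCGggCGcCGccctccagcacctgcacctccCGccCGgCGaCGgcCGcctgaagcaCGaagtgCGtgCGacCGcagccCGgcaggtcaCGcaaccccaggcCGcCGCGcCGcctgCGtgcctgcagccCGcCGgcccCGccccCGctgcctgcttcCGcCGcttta
LINC00992 (chr5:117415262-117415561, plus strand): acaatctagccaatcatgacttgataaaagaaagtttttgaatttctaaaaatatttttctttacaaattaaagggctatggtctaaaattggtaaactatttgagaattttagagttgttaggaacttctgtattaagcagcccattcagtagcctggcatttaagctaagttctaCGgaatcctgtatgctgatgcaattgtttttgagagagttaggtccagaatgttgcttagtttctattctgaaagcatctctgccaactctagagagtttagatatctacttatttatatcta

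Of the 20 LINC genes called in at least 1 comparison, 16 matched a RefSeq promoter window. Their windows held 1 to 35 CG dinucleotides with a median of 6.5. LINC00886, with 35 CG and an observed over expected CpG ratio of 1.05, was the single window of the 16 that was CpG-rich by a GC content above 50% and a ratio above 0.6, while 46.6% of the 27305 windows in the table were. CG reads the same on both strands and cannot overlap itself, and 95.9% of all windows held at least 1. The 11 windows from the 13 genes that were higher at 5 µM held 3 to 14 CG each, and 0 of them were CpG-rich. LINC02135 had 14, LINC02381 had 13, LINC00261 had 8, LINC00513 had 6 and LINC00592 had 4. Of the genes lower at 5 µM, LINC00992 and LINC00920 held 1 CG each and LINC01234 held 4. LINC promoters were in general poor in CG, since 18.4% of the 588 windows of LINC genes on the array were CpG-rich. Of the 111 LINC genes that passed the signal filter 87 had a window, and 34.5% of these were CpG-rich, 1 of the 16 called (6.25%) and 29 of the 71 uncalled (40.8%). The other tested LINC genes have no window in the table, and this difference was not tested, so the shares are a description. Over all tested genes 78.6% of 9614 windows were CpG-rich, and the calls leaned the same way. At 5 µM 6.35% of all tested genes with a CpG-rich window and 14.8% of those with another window were called higher. For LINC genes these were 0 of 30 and 11 of 57 (19.3%), so the lean is not particular to LINC genes. No methylation was measured in these arrays, so the windows describe sequence content alone.

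Most LINC genes gave little signal in HT-29 cells. The values are log2 signals, and the median of all probe sets of an array (5.07 to 5.52) served as its floor. The median LINC gene had a mean log2 signal of 2.87, against 6.47 over all genes, and 642 of the 840 (76.4%) were below the floor on all 9 arrays, against 31.6% of all genes. Testing was limited to genes that reached the floor on every array of 1 group or more. This held for 111 LINC genes (13.2%) and for 11758 of all genes (59.5%). Another 87 reached the floor on some arrays without meeting the filter. At 0 µM 86 LINC genes were above the floor on all 3 arrays, at 5 µM 94 and at 10 µM 84. Of the 111 tested, 70 were above it on all 9 arrays, 12 only at 5 µM, 8 only at 0 µM and 8 only at 10 µM. Since a gene that passes through the one group where it is high has to differ between groups, these counts are a description of the filter. The tested LINC genes also had a larger median standard error for a log2 difference, 0.22 against 0.15 over all tested genes. Genes of like signal were not compared, so the part of low signal in this was not tested.

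**Figure D1:**
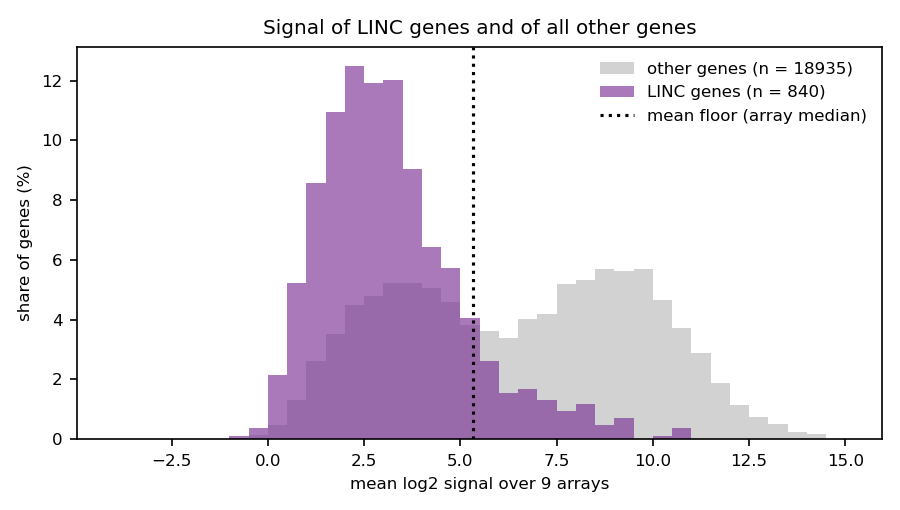
Share of genes (%) by mean log2 signal over the 9 arrays, in bins of equal width, for the 840 LINC genes and the 18935 other genes. The dotted line is the mean floor. The LINC genes are concentrated below it, with 642 under the floor on every array.

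A few facts of the arrays bear on these values. The actin 3′ minus 5′ log2 difference, a sign of RNA integrity that grows with degradation or shorter labelling products, moved with dose: it was 2.09 ± 0.19 at 0 µM, 2.59 ± 0.10 at 5 µM and 2.98 ± 0.17 at 10 µM (SD, n = 3). The 18S rRNA control of 10 µM replicates 2 and 3 (13.45 and 13.60) stood above that of the other 7 arrays (11.77 to 12.56). Of 18 colon epithelium markers 13 were above the floor on all 9 arrays, including EPCAM, VIL1 and KRT20, whereas CDX1, CDX2, FABP1 and PHGR1 were below it on every array. Of the fibroblast markers 2 of 10 (COL1A1 and LUM), of the endothelial markers 1 of 5 (PECAM1) and of the leukocyte markers 2 of 9 (CD14 and LYZ) were above it on all 9, and the defining leukocyte gene PTPRC was above it on none. COL1A1 had means of 6.67, 9.35 and 8.65 at 0, 5 and 10 µM, while the median over the 10 fibroblast markers was 4.46, 4.37 and 4.42. The part of RNA quality and of these markers in the results was not tested. The actin difference was entered as a covariate, but its ranges at 0, 5 and 10 µM did not overlap (1.914 to 2.286, 2.494 to 2.689 and 2.84 to 3.165). The design therefore confounds the actin difference with dose, and they cannot be told apart. In bulk RNA, fewer cells of a type and less RNA per cell cannot be told apart. DNMT1, the maintenance methyltransferase that 5-Aza depletes as a protein, had log2 signals of 8.61 ± 0.10, 8.88 ± 0.09 and 9.27 ± 0.09 (SD, n = 3) at 0, 5 and 10 µM. The 10 µM value was 1.59-fold that in vehicle (limma adjusted p = 0.00199), under 2-fold, and 5 µM vs. 0 µM did not pass (limma adjusted p = 0.065).

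The first comparison was 5 µM vs. 0 µM, which asks what the lower dose did to LINC transcripts. Calls required both more than a 2-fold difference and a limma p of 0.05 or less after Benjamini-Hochberg adjustment over all tested genes. At 5 µM 13 of the 111 tested LINC genes were higher (11.7%), against 8.6% of all tested genes, and 3 were lower (2.7%), against 1.32%. Of the 13, 8 passed the signal filter only through the 5 µM arrays on which they were high (LINC00592, LINC00622, LINC00942, LINC01300, LINC01512, LINC02135, LINC02381 and LINC02985), as 10.8% of the tested LINC genes did against 3.23% of all tested genes, so the share of 11.7% is in large part set by the filter. Without the filter the order turned, with 20 of 840 LINC genes higher (2.38%) against 5.7% of all genes. By the adjusted p alone 29 were higher and 9 lower (26.1% and 8.11%, against 20.2% and 13.3% of all tested genes). The median log2 fold change of the 111 genes was 0.17, with quartiles of -0.17 and 0.61, against a median of 0.04 over all tested genes. The genes called higher were LINC01300, LINC02381, LINC02135, LINC00324, LINC00513, LINC02985, LINC00520, LINC00942, LINC00592, LINC00622, LINC00261, LINC01512 and LINC00460, and those called lower were LINC00992, LINC01234 and LINC00920. The balance depended on scaling: 81.2% of the LINC calls were higher on the deposited scale, against 86.7% of the calls over all tested genes. After quantile normalization the shares were 66.7% (10 higher, 5 lower) and 78.7%. With equal array medians they were 55.6% (10 higher, 8 lower) and 61.9%, and this scaling moved the median of all tested genes from 0.04 to -0.22.

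**Figure D2:**
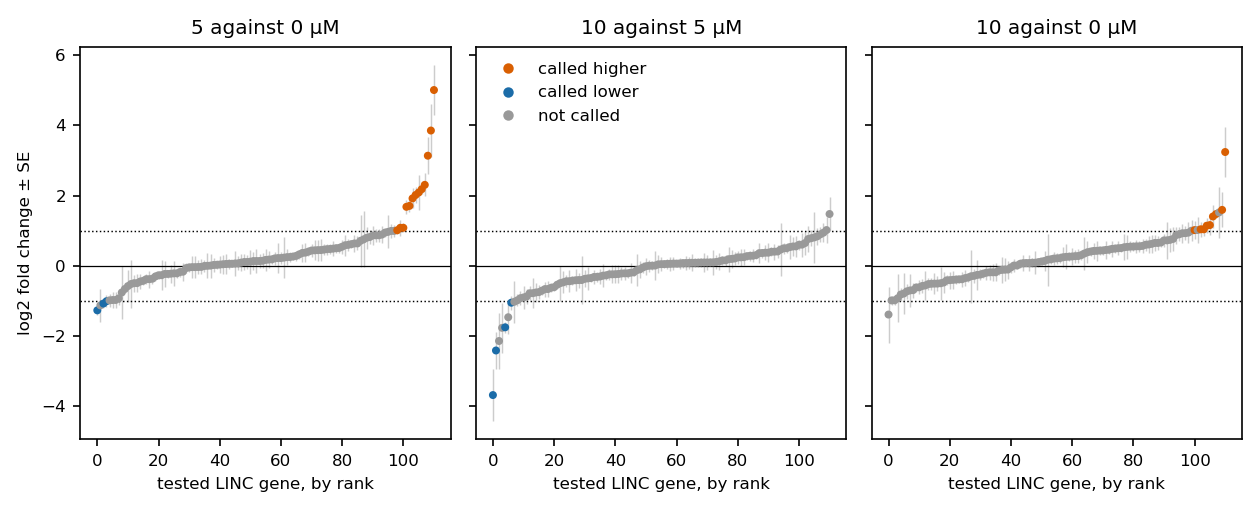
Log2 fold change (y axis, with standard error) of each of the 111 tested LINC genes, ranked along the x axis within each of the 3 comparisons. Dotted lines mark 2-fold. At 5 vs. 0 µM 13 genes are called higher and 3 lower, at 10 vs. 5 µM 0 and 4, and at 10 vs. 0 µM 9 and 0.

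The 4 LINC genes called higher that were above the floor on all vehicle arrays were LINC00513, LINC00520, LINC00261 and LINC00460. LINC00513, described as a positive regulator of type I interferon signalling, varied little within groups. Its log2 signals were 5.35, 5.77 and 5.65 at 0 µM, 7.77, 7.73 and 7.81 at 5 µM and 6.94, 7.07 and 7.18 at 10 µM. The groups did not overlap, and the order was vehicle, 10 µM, 5 µM. The log2 fold change at 5 µM was 2.18 ± 0.12 (SE), or 4.53-fold (limma adjusted p = 1.1e-05). LINC00513 lies across LINC-PINT, another noncoding gene, and its second probe set was below the floor on all 9 arrays.

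LINC00520 read 5.47, 5.67 and 5.70 at 0 µM, 7.36, 7.54 and 7.98 at 5 µM and 6.33, 7.15 and 6.77 at 10 µM. All treated arrays were above all vehicle arrays, and all 5 µM arrays above all 10 µM arrays. The rise at 5 µM was 2.01 ± 0.22 on the log2 scale (4.04-fold, limma adjusted p = 0.000284). Its single probe set is named as shared between transcripts, so it has no value without such probe sets. LINC00261, known from endoderm differentiation as a transcript beside the endoderm transcription factor FOXA2, had signals of 6.69, 6.63 and 6.58 in vehicle, 7.67, 7.85 and 7.64 at 5 µM and 6.84, 7.34 and 7.10 at 10 µM. It rose 2.12-fold at 5 µM (log2 fold change 1.08 ± 0.13, limma adjusted p = 0.000535), and its 10 µM arrays fell between the other groups without touching either. The call was lost after quantile normalization, with equal array medians and with the actin covariate (0.82 at the lowest). LINC00460, often reported as high in carcinomas, read 7.44, 7.65 and 7.39 at 0 µM and 8.42, 8.66 and 8.43 at 5 µM, a change of 1.01 ± 0.11. That is close to the 2-fold threshold, and its call was lost without 0 µM replicate 1, 0 µM replicate 3 or 5 µM replicate 2 (log2 fold change from 0.93 to 1.09 over the arrays left out in turn).

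For 7 of the 13 genes all vehicle arrays were below the floor, so that only a lower bound can be given for their rise. The bound is the fold by which the mean measured log2 signal of the higher group exceeded the mean floor of the arrays of the lower group. LINC02381, which lies beside HOXC4 at the end of the HOXC cluster, had log2 signals of 2.20, 3.00 and 3.14 at 0 µM, 6.89, 6.19 and 6.81 at 5 µM and 4.30, 0.93 and 3.63 at 10 µM. It was above the floor on the 5 µM arrays alone, at least 2.79-fold higher than in vehicle (fitted log2 difference 3.85 ± 0.75, limma adjusted p = 0.00494). LINC02135, located between IRF8 and FOXF1, followed the same order with 4.53, 2.79 and 3.02 in vehicle, 6.09, 6.68 and 6.96 at 5 µM and 3.23, 4.47 and 4.80 at 10 µM. The difference was at least 2.70-fold (limma adjusted p = 0.00249).

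LINC00592, placed among the keratin genes KRT80 and KRT7, was tighter among cultures. Its signals were 4.60, 4.37 and 4.89 at 0 µM, 6.25, 6.34 and 6.39 at 5 µM and 4.85, 4.33 and 4.56 at 10 µM, so the 10 µM and vehicle arrays overlapped and the 5 µM arrays stood above both. The rise was at least 2.27-fold (limma adjusted p = 0.000147). LINC00622 went from 4.89, 4.56 and 4.57 in vehicle to 6.41, 6.24 and 6.40 at 5 µM, at least 2.30-fold, with 6.06, 5.33 and 5.32 at 10 µM. LINC00942 went from 4.89, 3.93 and 4.62 to 6.25, 6.17 and 6.77, at least 2.38-fold. Its second probe set was below the floor throughout, at means of 2.04, 5.02 and 4.93 for 0, 5 and 10 µM. Of these 7 genes LINC02985 and LINC01300 had the lowest signals at 5 µM. LINC02985 read 3.05, 3.61 and 4.76 at 0 µM and 5.93, 5.60 and 6.14 at 5 µM, at least 1.68-fold. LINC01300 read 0.85, 1.68 and -0.32 at 0 µM and 6.0, 5.60 and 5.60 at 5 µM. Its fitted log2 difference was 5.00, but the bound is at least 1.5-fold, since its 5 µM arrays were only just above the floor.

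LINC00324 and LINC01512 were above the floor on 2 of 3 vehicle arrays. LINC00324 had signals of 4.29, 5.37 and 5.66 in vehicle, 7.26, 7.15 and 7.83 at 5 µM and 6.45, 6.41 and 6.67 at 10 µM, with the 3 groups fully separated. The log2 fold change at 5 µM was 2.30 ± 0.33 (limma adjusted p = 0.00111). Its annotation spans 4 transfer RNA genes. LINC01512, beside VEGFA, read 5.22, 5.40 and 4.92 at 0 µM and 6.12, 6.24 and 6.43 at 5 µM, a log2 fold change of 1.08 ± 0.22 whose call was lost without 0 µM replicate 3 (log2 fold change 0.95 to 1.19 over the arrays left out in turn).

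**Figure D3:**
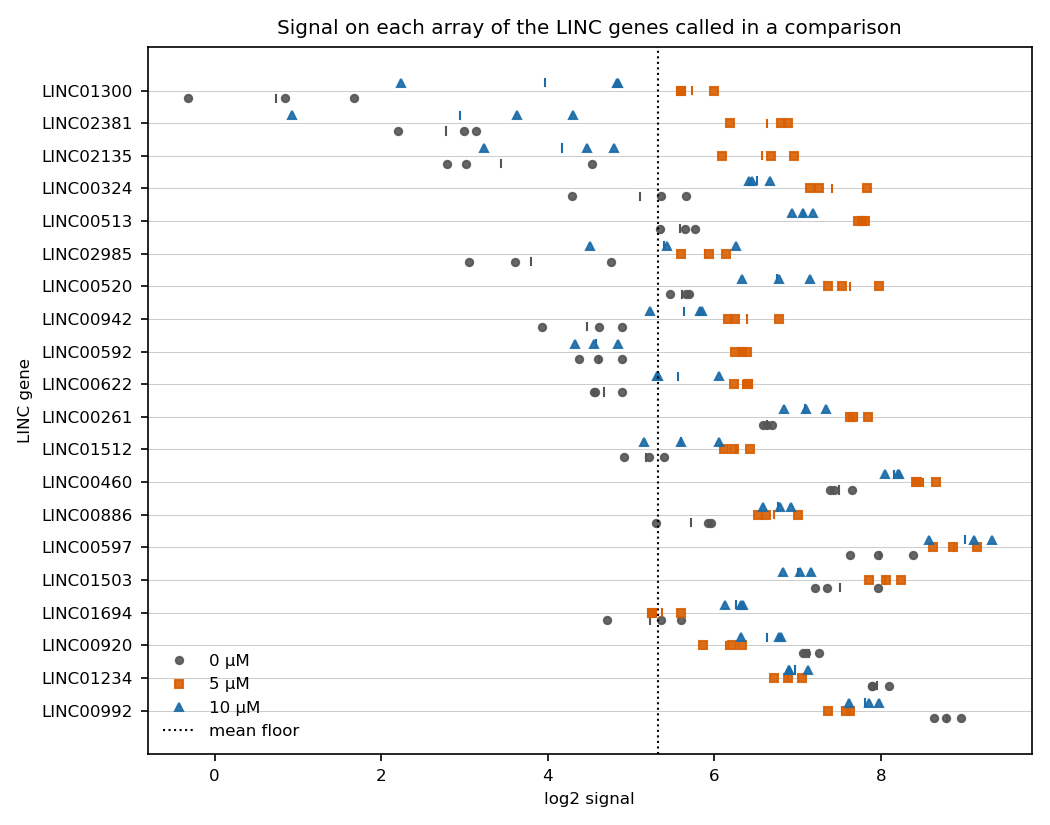
Log2 signal (x axis) on each of the 9 arrays for the 20 LINC genes called in any comparison, 3 arrays per group, with a short bar at each group mean and a dotted line at the mean floor. Genes are ordered by their fitted log2 difference at 5 vs. 0 µM, which is no rank of change for genes below the floor in vehicle, from LINC00992 (-1.27) at the bottom to LINC01300 (5.00) at the top.

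Of the falls at 5 µM, LINC00992 was the largest. It read 8.78, 8.97 and 8.64 at 0 µM, 7.37, 7.63 and 7.59 at 5 µM and 7.61, 7.98 and 7.86 at 10 µM. All treated arrays lay below all vehicle arrays, and the fall at 5 µM was 2.40-fold (log2 fold change -1.27 ± 0.14, limma adjusted p = 0.000244). LINC01234, often reported as raised in carcinomas, read 8.10, 7.89 and 7.89 in vehicle and 6.89, 7.05 and 6.71 at 5 µM (-1.07 ± 0.12). LINC00920 read 7.26, 7.07 and 7.11 in vehicle and 6.34, 6.22 and 5.86 at 5 µM, and at -1.01 ± 0.17 it sat at the threshold. The LINC01234 call was lost without 5 µM replicate 3 (-0.99), and the LINC00920 call without that array (-0.87) or 0 µM replicate 1 (-0.95). The count of LINC genes called lower was 1 without 5 µM replicate 3 and 6 without 0 µM replicate 2 (1.36% and 1.26% of all tested genes). LINC00992 and LINC00513 were the LINC genes whose calls at 5 µM held under each of the 22 alternatives.

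With the actin 3′ minus 5′ difference as a covariate, 5 of the 13 genes were still called higher at 5 µM (LINC00513, LINC00592, LINC00622, LINC01300 and LINC01512), and the covariate fit called 555 of all tested genes higher (4.72%). LINC00992 remained called lower. The median log2 fold change of the 13 went from 2.01 to 1.56 while their median standard error went from 0.22 to 0.39. LINC02985 changed sign, from 2.08 to -0.11. Because the actin difference moved with dose, this fit cannot tell them apart, and a lost call says nothing on RNA quality alone.

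The second comparison, 10 µM vs. 5 µM, asks what the higher dose did, and it shares the 5 µM arrays with the first. It gave 0 LINC genes called higher (0.264% of all tested genes were) and 4 called lower (3.6%, against 2.08%). Of the 4, 3 had entered the test only through the 5 µM arrays, so that lower signals at 10 µM were part of how they were selected, and without the filter 1 of the 4 (LINC00592) was still called. Without the fold threshold 6 were higher (6.93% of all tested genes were) and 13 lower (8.92%), and 37 of the 111 had an unadjusted limma p under 0.05 (33.3%, against 32.5% of all tested genes). The 4 genes were LINC02381, LINC02135, LINC00592 and LINC01503. For the first 3, the 10 µM arrays were all below the floor, so the fall from 5 µM was at least 2.31-fold for LINC02381 (limma adjusted p = 0.0156), at least 2.23-fold for LINC02135 (limma adjusted p = 0.0195) and at least 1.87-fold for LINC00592 (limma adjusted p = 0.00144). LINC01503, described as an oncogenic transcript of squamous carcinomas, read 7.21, 7.35 and 7.97 at 0 µM, 8.24, 8.07 and 7.86 at 5 µM and 7.03, 7.17 and 6.82 at 10 µM. Its 10 µM arrays were below all others, and the difference from 5 µM was -1.05 ± 0.20 (limma adjusted p = 0.0131). This call was lost without 5 µM replicate 1 or 10 µM replicate 3 (-1.15 to -0.96 over the arrays left out in turn), that of LINC02381 without 5 µM replicate 1 or 3 (-4.35 to -2.66) and that of LINC02135 without 5 µM replicate 2 or 3 (-2.73 to -1.94).

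Among the other LINC genes with a large difference between the doses, LINC01588 had 6.48, 6.16 and 6.61 at 5 µM and 2.07, 4.87 and 5.90 at 10 µM, a fitted difference of -2.14 ± 0.80 that missed the threshold (limma adjusted p = 0.101). Its 10 µM arrays ranged widely, and its probe set is one that can bind several transcripts. LINC01300 was -1.76 ± 0.72 (limma adjusted p = 0.128), and its 10 µM signals of 4.83, 4.85 and 2.23 were all below the floor. The calls at this step depended on single arrays. With 10 µM replicate 1 left out 7 LINC genes were lower (2.9% of all tested genes were), and with 10 µM replicate 2 left out 4 were higher (0.809%). With the actin covariate 0 were called, and 12 of all tested genes were lower.

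The third comparison was 10 µM vs. 0 µM, which shares its vehicle arrays with the first. At 10 µM 9 LINC genes were called higher (8.11%, against 6.09% of all tested genes) and 0 lower (against 1.5%). Of the 9, 3 passed the signal filter only through the 5 µM arrays (LINC00942, LINC01300 and LINC02985). LINC01694 passed it only through the 10 µM arrays on which it was high, so the share of 8.11% is in part set by the filter. Without the filter the share higher was 1.55% against 3.69%. With the actin covariate 0 of the 9 were called and 0 of all tested genes, and the test named in the methods called 1 LINC gene higher. By the adjusted p alone 29 were higher (19.8% of all tested genes were) and 12 lower (13.3%), and 50 had an unadjusted limma p under 0.05 (45%, against 45.2%). The median log2 fold change was 0.21, against 0.05 over all tested genes. On the other scalings the calls were 3 higher and 2 lower after quantile normalization and 3 higher and 4 lower with equal array medians, where the deposited scale gave 9 and 0. Over all tested genes 80.3% of the calls were higher on the deposited scale, 68.9% after quantile normalization and 49.1% with equal array medians.

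LINC00513 and LINC00520, higher at 5 µM already, had rises at 10 µM of 2.78-fold (limma adjusted p = 0.000179) and 2.21-fold (limma adjusted p = 0.00601). LINC00324 was 2.65-fold higher (1.40 ± 0.33), a value that turned to -0.73 with the actin covariate. LINC00942, with 5.23, 5.86 and 5.83 at 10 µM, was at least 1.41-fold higher than in vehicle. LINC02985 was at least 1.19-fold higher, but its 10 µM signals of 4.51, 5.43 and 6.26 overlapped those in vehicle and its call was lost on leaving out any of 7 of the 9 arrays. LINC01300 was called, yet its arrays were below the floor at both 0 and 10 µM, so no fold is given. Leaving out 10 µM replicate 2 ended the call of LINC00520 (log2 fold changes of 0.94 to 1.35 over the arrays left out in turn), 0 µM replicate 1 that of LINC00324 (1.00 to 1.68), and 0 µM replicate 2 or 10 µM replicate 3 that of LINC00942 (0.88 to 1.37). Without 10 µM replicate 2 the count of LINC genes called higher was 16, and without 0 µM replicate 2 it was 6 (7.46% and 5.36% of all tested genes).

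The 3 genes called at 10 µM and not at 5 µM were LINC00886, LINC00597 and LINC01694. LINC00886 read 5.92, 5.30 and 5.96 at 0 µM, 6.62, 6.53 and 7.01 at 5 µM and 6.79, 6.58 and 6.92 at 10 µM. Its log2 fold changes were 0.99 at 5 µM and 1.04 at 10 µM, on either side of the 2-fold threshold, and 10 vs. 5 µM differed by 0.05 ± 0.20. LINC00597, an annotated gene inside PEAK1 on chromosome 15, read 7.97, 7.63 and 8.39 in vehicle, 9.16, 8.63 and 8.87 at 5 µM and 9.33, 8.58 and 9.13 at 10 µM. Its single probe set, too, is named as shared between transcripts. The treated groups overlapped each other (10 vs. 5 µM, 0.13 ± 0.25), and PEAK1 itself, a kinase of the cytoskeleton, had a log2 fold change of 0.45 ± 0.12 at 10 µM that was not called. LINC01694 read 4.72, 5.37 and 5.60 at 0 µM, 5.25, 5.61 and 5.26 at 5 µM and 6.33, 6.13 and 6.34 at 10 µM, so that the vehicle and 5 µM arrays overlapped and the 10 µM arrays stood above both. The difference from 5 µM was 0.90 ± 0.22 (limma adjusted p = 0.0274), under 2-fold. LINC01694 passed the filter only through the 10 µM arrays, so a higher signal there was part of how it was selected. These 3 genes were close to the threshold and their calls against vehicle rested on single arrays: LINC00886 lost its call without 0 µM replicate 2 or 10 µM replicate 3, LINC00597 without 0 µM replicate 2 or 10 µM replicate 1 or 3, and LINC01694 without 0 µM replicate 1, with log2 fold changes no lower than 0.78 in each case.

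Against vehicle 6 LINC genes were called higher at both doses, 7 at 5 µM alone and 3 at 10 µM alone. Over all tested genes 8.6% were called higher at 5 µM and 6.09% at 10 µM, and their split by dose was not counted. The 7 LINC genes called at 5 µM alone were LINC02381, LINC02135, LINC00592, LINC00622, LINC00261, LINC01512 and LINC00460. For 3 of them (LINC02381, LINC02135 and LINC00592) the difference between the doses was itself called. For the other 4 it was -0.78 ± 0.20, -0.62 ± 0.13, -0.66 ± 0.22 and -0.35 ± 0.11 in the same order, all under 2-fold. For LINC00622 and LINC00261 the adjusted p was under the threshold (limma adjusted p = 0.034 and 0.0184), and for LINC01512 and LINC00460 it was not (limma adjusted p = 0.0754 and 0.0711). LINC02381, LINC02135, LINC00592, LINC00622 and LINC01512 passed the signal filter only through the 5 µM arrays, and LINC01694 only through the 10 µM arrays. Lower signals at the other dose were thus part of how these genes were selected, and the counts by dose are a description.

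The 8 LINC genes with the highest mean signal were LINC00623, LINC01000, LINC00674, LINC00621, LINC00662, LINC00938, LINC01133 and LINC01003, at mean log2 signals from 10.73 to 9.24. LINC00623, LINC01000 and LINC00621 are reported by probe sets that can bind several related transcripts, so their signals may be shared with copies. Of these 8 genes 0 were called in any comparison. LINC00662, LINC00938 and LINC01133 nevertheless passed the adjusted p at 5 µM with falls under 2-fold. LINC01133, a transcript often reported as low in colorectal carcinoma, went from 9.76, 9.97 and 9.68 to 8.84, 8.90 and 8.73 (-0.98 ± 0.19, limma adjusted p = 0.00466), with 8.82, 9.62 and 9.25 at 10 µM. LINC00938 went from 9.67, 9.78 and 9.64 to 9.10, 9.13 and 8.88 (-0.66 ± 0.10, limma adjusted p = 0.00146). LINC00662 went from 9.78, 9.56 and 9.94 to 9.08, 8.57 and 8.71 (-0.97 ± 0.22, limma adjusted p = 0.0101), and its 5 probe sets above the floor had log2 fold changes between -1.60 and -0.97. At 10 µM its arrays read 9.93, 9.11 and 9.69 and overlapped vehicle.

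Of the 23 LINC genes with at least 2 probe sets above the floor, 2 had probe sets with differences of opposite sign that lay more than 1 log2 unit apart. The probe sets of LINC00265 differed by 1.00 and -0.29 at 10 µM vs. 0 µM, and those of LINC00537 ranged from -0.72 to 0.72. Neither was called. For 16 of the 20 called genes the array has 1 probe set, so that these arrays hold no second measurement of the transcript.

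The genes next to the LINC genes were examined because some long noncoding RNAs act on their neighbours. The nearest protein-coding gene on each side was taken from the RefSeq annotation, with any that overlapped. Of 20 tested neighbours of the 13 LINC genes that were higher at 5 µM, 0 were called higher (8.6% of all tested genes were). FOXA2, beside LINC00261, went from a mean log2 signal of 7.81 to 8.41 (0.60 ± 0.14, limma adjusted p = 0.0114), under 2-fold. HOXC4, beside LINC02381, had a log2 fold change of -0.90 ± 0.19 (limma adjusted p = 0.00732), opposite to that of LINC02381. VEGFA, the angiogenic growth factor beside LINC01512, was -0.002 ± 0.14. MKLN1 beside LINC00513 was 0.17 ± 0.09, and PELI2 and KTN1 beside LINC00520 were -0.64 ± 0.18 and -0.20 ± 0.09. Both neighbours of LINC02135, IRF8 and FOXF1, were below the filter and were not tested.

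**Figure D4:**
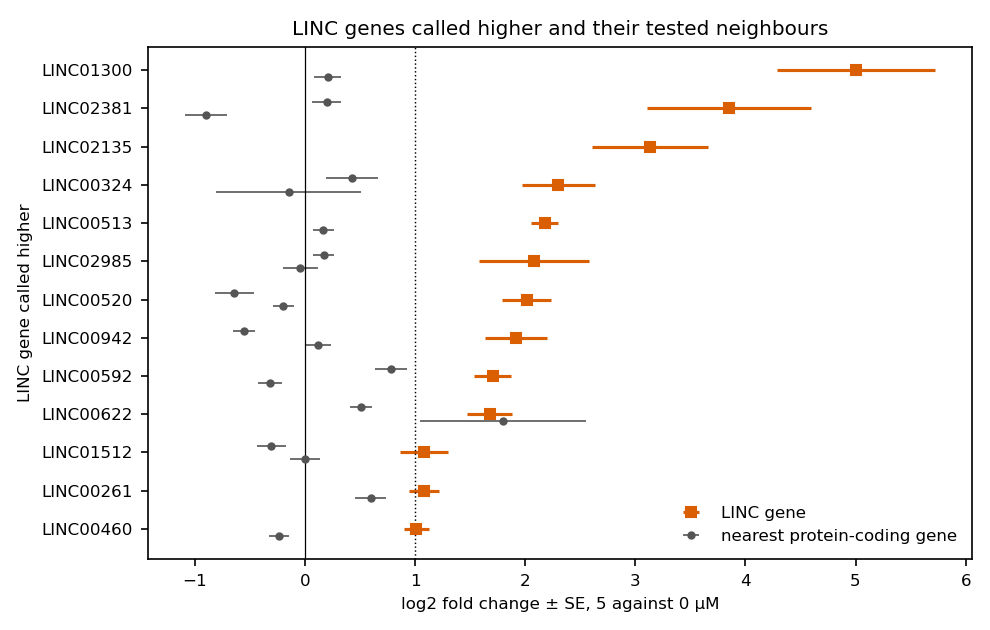
Log2 fold change with standard error (x axis) at 5 vs. 0 µM for the 13 LINC genes called higher (squares) and their 20 tested protein-coding neighbours (circles, drawn on the same row). The dotted line marks 2-fold. HSD3B1 beside LINC00622 is the 1 neighbour drawn past 2-fold, with a wide error and no call. Its means at 0 and 5 µM both lie below the floor, so no fold is given for it. The lowest is HOXC4 beside LINC02381 (-0.90).

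KRT7, the simple-epithelium keratin beside LINC00592, was called lower at 10 µM vs. 5 µM like LINC00592, with means of 8.33, 9.11 and 7.14 at 0, 5 and 10 µM (-1.97 ± 0.15, limma adjusted p = 0.000528), and it was the 1 called of 5 tested neighbours of the LINC genes that were lower at that step (2.08% of all tested genes were). That value rests on the brightest KRT7 probe set, whose name marks it as shared between transcripts. Without such probe sets the KRT7 difference was 0.23 at 10 µM vs. 5 µM and 0.63 at 10 µM vs. 0 µM, with the opposite sign. KRT80, on the other side, was -0.34 ± 0.11 at 10 µM vs. 5 µM. At 10 µM vs. 0 µM 1 of 15 tested neighbours of the 9 genes was called higher (6.09% of all tested genes were). It was CTC1, a telomere maintenance gene beside LINC00324, at 1.01 ± 0.23 (limma adjusted p = 0.0123), whose call was lost without 0 µM replicate 2 (0.82) or 10 µM replicate 1 (0.84). HSD3B1, a steroid dehydrogenase beside LINC00622, was called higher at 10 µM vs. 0 µM, with means of 2.64, 4.44 and 5.65 at 0, 5 and 10 µM. Its means at 0 and 5 µM lay below the floor, so it passed the filter only through the 10 µM arrays. A higher signal at 10 µM was thus part of how HSD3B1 was selected. IER5L beside LINC01503 was called lower at 5 µM (-1.07 ± 0.26, limma adjusted p = 0.0126), where LINC01503 was not called. These calls were lost without 10 µM replicate 3 for HSD3B1 (2.91, limma adjusted p = 0.056) and without 5 µM replicate 3 for IER5L (-0.83). The 20 called LINC genes lay on 15 chromosomes, 5 of them on chromosome 12 (LINC00592, LINC00942, LINC01234, LINC02381 and LINC02985), where 8 of 48 LINC genes were tested. All of these 5 but LINC01234 passed the signal filter only through the 5 µM arrays. The share of all tested genes of chromosome 12 that were called was not counted, so these counts are a description.

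Noncoding RNA genes outside the set were counted for context. Of 32 tested genes whose earlier symbol was a LINC number, 2 were called higher and 1 lower at 5 µM (8.6% and 1.32% of all tested genes), 0 and 1 at 10 µM vs. 5 µM (0.264% and 2.08%), and 1 and 1 at 10 µM vs. 0 µM (6.09% and 1.5%). UCA1, a transcript first described in bladder carcinoma, had signals of 9.30, 9.31 and 9.23 in vehicle, 10.48, 10.26 and 10.94 at 5 µM and 9.24, 9.30 and 9.10 at 10 µM. It was 2.43-fold higher at 5 µM and at 10 µM was 2.55-fold below 5 µM (limma adjusted p = 0.000611 and 0.00317), an order like that of LINC00592. DLEU2 and DLEU1, transcribed from the region often deleted in chronic lymphocytic leukaemia, moved apart at 5 µM, with DLEU2 2.16-fold higher and DLEU1 2.38-fold lower, and DLEU1 was lower at 10 µM as well (2.17-fold). Both rest on probe sets named as shared between transcripts, and the DLEU2 call was lost without 5 µM replicate 1 (0.97). LRP8-DT was 2.22-fold higher at 10 µM, a call lost without 0 µM replicate 2 (0.99). Of 12 tested genes of a second list of well-known noncoding RNAs, 1 was called higher and 1 lower at 5 µM (8.6% and 1.32% of all tested genes). The counts were 0 and 0 at 10 µM vs. 5 µM (0.264% and 2.08%), and 0 and 1 at 10 µM vs. 0 µM (6.09% and 1.5%). GAS6-AS1 rose at least 2.01-fold from vehicle signals that were all below the floor, with the call lost on leaving out any of the 5 µM arrays (fitted log2 differences of 2.03 to 4.24 over the arrays left out in turn). It passed the signal filter only through the 5 µM arrays, so a higher signal there was part of how it was selected. EPB41L4A-AS1 fell 2.53-fold at 5 µM and 2.42-fold at 10 µM.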

How the data were processed

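Total RNA of 9 HT-29 cultures was hybridised to 1 array each, and groups were taken from the labels. The deposited values are log2 signals of 54675 probe sets. Per the labels the authors used RMA in the affy package 1.14.2, but the values have the form of MAS 5.0 signals: log2 of multiples of 0.1 down to -3.32, with a 2% trimmed mean of 250.0 on each array. Low signals are therefore noisy on the log2 scale, and the number of arrays limits precision. Left out were 6 probe sets with a missing value, and 47 shared between a LINC gene and other genes. Symbols came from the platform's gene table, updated through Entrez numbers in RefSeq (GRCh38.p14), where 8 LINC genes were not found and kept their name.

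The brightest probe set, by mean over the arrays, stood for a gene. The fit used lmFit and eBayes of limma 3.58.1 (R 4.3.3) with a mean for each group, two-sided, with Benjamini-Hochberg adjustment over the 11758 tested genes; only LINC genes and their context are printed. The code was tested on simulated data. No set test was run. The LINC genes, the lists and the alternatives were chosen with earlier results of these data known. The genes named were DNMT1, called LINC genes, the 8 brightest, those whose probe sets disagreed, called neighbours and other noncoding genes, and the 4 with the largest difference between doses; further neighbours were named after their values were seen. Alternatives changed the floor, the choice of probe sets, the arrays in the fit, the replicate block, the test, the scaling, the fold threshold and an actin 3′ minus 5′ covariate. Leaving out 10 µM replicates 2 and 3 together was added after seeing the data. The matched RNA-Seq data were not used here. Python 3.11.15 and matplotlib 3.10.9 drew the figures.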

Additional observations from a re-analysis of the deposited data

How the results depend on the processing

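Counts of called LINC genes are given as higher and lower. Without a signal filter, over all 840 genes, they were 20 and 9 at 5 µM vs. 0 µM (2.38% and 1.07%, against 5.7% and 0.996% of all genes). At 10 µM vs. 5 µM they were 1 and 2 (0.119% and 0.238%, against 0.182% and 0.85%), with 5 lower at 10 µM vs. 0 µM (0.595%, against 0.991%). A floor at the 60th percentile left 64 LINC genes to test. It gave 5 higher at 5 µM (6.8% of all tested genes were), and 1 and 1 at 10 µM vs. 5 µM (0.232% and 1.97%). Without the fold threshold they were 29 and 9, 6 and 13, and 29 and 12 in the 3 comparisons. Quantile normalization gave 5 lower at 5 µM (1.81% of all tested genes were) and 3 and 2 at 10 µM vs. 0 µM (4.37% and 1.97%), with medians of -0.012 and 0.066. Equal array medians gave 8 lower (3.77%) and 3 and 4 (3.9% and 4.04%), with medians of -0.097 and -0.063. The actin covariate, which moved with dose, gave 5 and 1 at 5 µM (4.72% and 0.919% of all tested genes). It gave 0 lower at 10 µM vs. 5 µM (0.102%) and 0 higher at 10 µM vs. 0 µM. Under it the log2 fold change reversed for LINC02985 (-0.11 at 5 µM and -2.32 at 10 µM), LINC00324 (-0.73 at 10 µM), LINC01694 (-0.024 at 10 µM) and LINC01300 (0.32 at 10 µM vs. 5 µM). Without _x_at and _s_at probe sets KRT7 reversed, to 0.23 and 0.63 at 10 µM against 5 µM and 0 µM. Student's test, named in the methods of the study beside eBayes, gave 1 lower at 10 µM vs. 5 µM and 1 higher at 10 µM vs. 0 µM (0.859% and 2.83% of all tested genes). At 10 µM vs. 5 µM eBayes with trend and robust gave 2 higher (0.298% of all tested genes were) and raising low signals to the floor gave 1 higher (0.23%). Averaging a gene's probe sets gave 1 lower at 10 µM vs. 0 µM (1.39% of all tested genes were). The cause of these differences was not tested. Leaving out 10 µM replicates 2 and 3 together left 1 array at 10 µM, so no counts of calls are given for that fit.

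Leaving out each array in turn gave 13 to 18 higher and 1 to 6 lower at 5 µM vs. 0 µM, 0 to 4 higher and 3 to 7 lower at 10 µM vs. 5 µM, and 6 to 16 higher (16 without 10 µM replicate 2) and 0 to 2 lower at 10 µM vs. 0 µM, and the medians were 0.14 to 0.26, -0.04 to 0.05 and 0.14 to 0.33. Of 29 calls of a LINC gene in a comparison, 14 were lost on leaving out some array, 23 with the actin covariate, and 2 (LINC00513 and LINC00992 at 5 µM) held under all 22 alternatives. Over all tested genes, arrays with the same replicate number did not deviate together (correlations of -0.09 to 0.18). The actin difference nevertheless rose with the number at each dose. It was 1.914, 2.062 and 2.286 at 0 µM, 2.494, 2.591 and 2.689 at 5 µM and 2.84, 2.948 and 3.165 at 10 µM. Whether the numbers pair the samples or give a processing order therefore cannot be decided here. With the replicate number as a block the counts were 13 and 3, 0 and 4, and 10 and 0. Signal over the floor limits these results: 642 LINC genes were below it on every array, and a group wholly below it gives only a bound.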
